A study of Mus musculus with 6 samples.

Results

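Excitation-contraction coupling is the step by which a muscle fibre turns an electrical signal into calcium release and contraction, and 10 of its core genes were examined in a myoblast model of myotonic dystrophy type 1 (DM1). The 10 genes were Cacna1s, Stac3, Ryr1, Jph1, Jph2, Trdn, Casq1, Casq2, Atp2a1 and Atp2a2. They were selected by gene symbol, with earlier results of these data known, and make up 10 of the 55421 genes in the deposited count table. RNA-seq was performed at day 4 of differentiation on derivatives of C2C12, an established line of mouse myoblasts whose cells fuse to form myotubes in low serum. All cells stably carried pCDNA3-GFP-(CUG)200, a plasmid that transcribes a long CUG repeat behind GFP and models the toxic RNA of DM1. The control line also carried the empty pLL4.0 vector, and the miR-322/-503 line carried pLL4.0-miR-322/-503, which overexpresses the microRNAs miR-322 and miR-503. Each line was sequenced as 3 libraries of total RNA. Each group was 1 stable line, so the effect of the microRNAs and a difference between the lines cannot be told apart. The methods speak of biological as well as technical replicates for the assays in general, while the labels do not say whether these libraries came from separate cultures. The p-values measure the spread between these libraries. No line without the repeat was analysed here.

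In a muscle fibre, an action potential runs along the T-tubule, an inward fold of the cell membrane. The voltage sensor CaV1.1 in the T-tubule then opens the ryanodine receptor RyR1 in the facing membrane of the sarcoplasmic reticulum, the calcium store of the fibre. Junctophilins hold the membranes together, triadin and calsequestrin keep calcium at the release site, and the SERCA pumps return it to the store. Altered splicing of calcium-handling transcripts, Ryr1, Atp2a1, Cacna1s and Bin1 among them, is a known feature of DM1 muscle, and splice forms were not measured here.

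Total estimated counts per library lay between 73532084 and 92157388, and 18140 genes passed the filter on low counts. Differences were tested with edgeR's quasi-likelihood test and are given as log2 fold changes of miR-322/-503 over control, so that a positive value is higher in the miR-322/-503 line. A gene was called at a Benjamini-Hochberg adjusted p under 0.05 over all tested genes. Of these, 28.8% were called, 13.2% as higher and 15.5% as lower, and the median log2 fold change was -0.01. The table listed between 0 and 17 estimated counts per library for Mir322 and Mir503, too few to check the overexpression. Of 16 markers of skeletal muscle differentiation, all were tested, 10 were higher and 1 was lower in the miR-322/-503 line. Their summed level was 5042 to 5513 CPM (counts scaled to a common library size) in the control libraries and 6589 to 6793 CPM in the miR-322/-503 libraries. Des, which encodes desmin, rose by 0.65 and Ckm, the muscle creatine kinase, by 0.87 on the log2 scale. The regulator Myog fell by 0.74, while Mef2c rose by 3.61 on the same scale, from 1.60 to 2.49 CPM in the control to 20.8 to 26.8 CPM in the miR-322/-503 libraries. In bulk libraries, fewer cells of a type and less RNA per cell cannot be told apart.

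Markers of other cell types were mostly near 0. Hand2, Fabp4, Adipoq, Cidec, Emcn, Adgre1, Cd3e and Rbfox3 had no counts in any library. Of 5 smooth muscle markers, Cnn1, Actg2 and Lmod1 fell, and the sum of the 5 was 342.0 to 367.7 CPM in the control libraries against 200.7 to 214.6 CPM in the miR-322/-503 libraries. Gfap of the neuronal and glial markers also fell, with only 13, 9 and 10 estimated counts in the miR-322/-503 libraries. Single markers rose, namely Lpl of 6 adipocyte, Tek of 5 endothelial, Tubb3 of 6 neuronal and glial and Spry1 of 4 satellite cell markers. The summed levels of these lists were 10.7 to 13.3 against 22.2 to 25.8, 1.03 to 1.30 against 3.75 to 5.07, 51.7 to 54.3 against 104.3 to 118.1 and 17.4 to 19.1 against 32.9 to 39.1 CPM, in the same order. Leukocyte markers summed to 2.01 to 2.93 and 3.16 to 3.83 CPM. The part of these shifts in the results was not tested. Cardiomyocyte markers bear on the cardiac isoform among the genes. Of 5 tested, Nppb rose, Nkx2-5 fell and the others were not called. Nppa and Myl7 did not exceed 0.439 CPM in any library, and the 8 cardiac markers summed to 104.3 to 120.3 CPM in the control libraries against 108.5 to 119.2 CPM in the miR-322/-503 libraries, most of it from Myl4, which embryonic skeletal muscle also expresses.

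The overexpressed microRNAs act by pairing bases 2 to 8 of the mature strand, the seed, with the 3' UTR of a messenger RNA. The paper names the toxic CUG repeat RNA and Celf1 as their direct targets, and the repeat was not searched here. The mature sequences show how closely the pair is related. They are RefSeq entries on GRCm38.p6, at chrX:53054306-53054327 and chrX:53054027-53054049, both on the minus strand, with the seed in capitals.
mmu-miR-322-5p: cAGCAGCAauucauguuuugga
mmu-miR-503-5p: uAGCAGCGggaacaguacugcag
The seeds differ in their last base. The longest annotated 3' UTR of each of the 10 genes (GENCODE M21) was searched for the reverse complements TGCTGCT and CGCTGCT on the transcribed strand. TGCTGCT also reads as a stretch of CTG repeat. Jph1 held 1 match to the miR-322 seed, and the other 9 genes held no match to either. Over the 20674 genes with such a 3' UTR, 20.6% held TGCTGCT and 4.00% held CGCTGCT. The Jph1 match began at base 724 of a 3' UTR of 2541 bases and lay at chr1:16996749-16996755 on the minus strand. It is shown in capitals with the bases around it (chr1:16996738-16996766), since it is the only match among the 10 genes.
Jph1 3' UTR: ctgctgtgaccTGCTGCTttaacatctcc
The match is a description of the letters, and pairing was not measured. Jph1 was higher in the miR-322/-503 line, as described with the junctophilins.

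Of the 10 genes, 4 rose, 1 fell and 5 did not pass the test, against 28.8% called among all genes. Ryr1, Casq2, Jph1 and Stac3 rose and Trdn fell. Of the 10, 1 rose more than 2-fold, Casq2, and 0 fell as much, against 4.59% and 5.29% of all genes (9.87% in either direction). The median log2 fold change of the 10 was 0.27, within a range of -0.70 to 1.18. The groups did not overlap in 6 of the 10, against 45.1% of all genes. Summed over the 10 genes, the level was 883.9 to 923.0 CPM in the control libraries against 1095 to 1169 CPM in the miR-322/-503 libraries. DESeq2 gave the same calls for all 10.

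**Figure D1:**
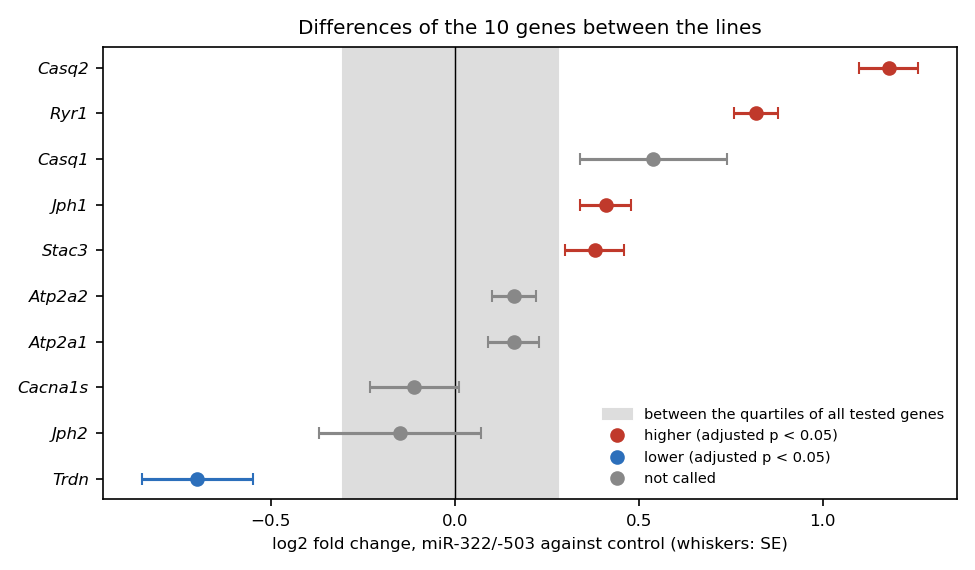
Log2 fold change of each of the 10 genes (miR-322/-503 over control, edgeR) with whiskers of 1 SE, coloured by call, with a grey band between the quartiles of all 18140 tested genes. Casq2 at 1.18 and Ryr1 at 0.82 lie farthest to the right and Trdn at -0.70 farthest to the left, while the pumps Atp2a1 and Atp2a2, both at 0.16, lie within the band.

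Of the voltage sensor and its adaptor, the adaptor passed the test. Cacna1s (chr1:136052750-136119822, plus strand) encodes the pore subunit of CaV1.1. Its level was 36.8, 33.5 and 28.9 CPM in the control libraries and 28.3, 34.5 and 29.3 CPM in the miR-322/-503 libraries. The groups overlapped, and the log2 fold change of -0.11 (SE 0.12) was not called at an adjusted p of 0.554. Stac3 (chr10:127501686-127508823, plus strand) encodes an adaptor that CaV1.1 needs to reach the T-tubule and to couple to RyR1. It was at 16.6, 16.7 and 17.0 CPM in the control libraries against 21.3, 22.8 and 21.1 CPM in the miR-322/-503 libraries. Every miR-322/-503 library lay above every control library, and the rise of 0.38 (SE 0.08) passed the test at an adjusted p of 0.00859. Cacna1s shares 1309 exonic bases with the antisense gene Gm37759, which had at most 76 counts in a library. Whether reads were counted by strand is not given in the sources used here.

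The release channel rose. Ryr1 (chr7:29003344-29125179, minus strand) was at 110.3, 111.9 and 99.1 CPM in the control libraries against 190.9, 187.3 and 189.3 CPM in the miR-322/-503 libraries. The coefficient of variation of the miR-322/-503 libraries was 0.948%, and the lowest of them was far above the highest control library. The log2 fold change was 0.82 (SE 0.06, adjusted p 8.8e-05), a 1.77-fold rise from 107.1 ± 6.99 to 189.2 ± 1.80 CPM (mean ± SD, n = 3). Genes within 5 Mb of Ryr1 had a median log2 fold change of -0.06 over 193 tested genes, so the rise was not shared by its neighbourhood.

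**Figure D2:**
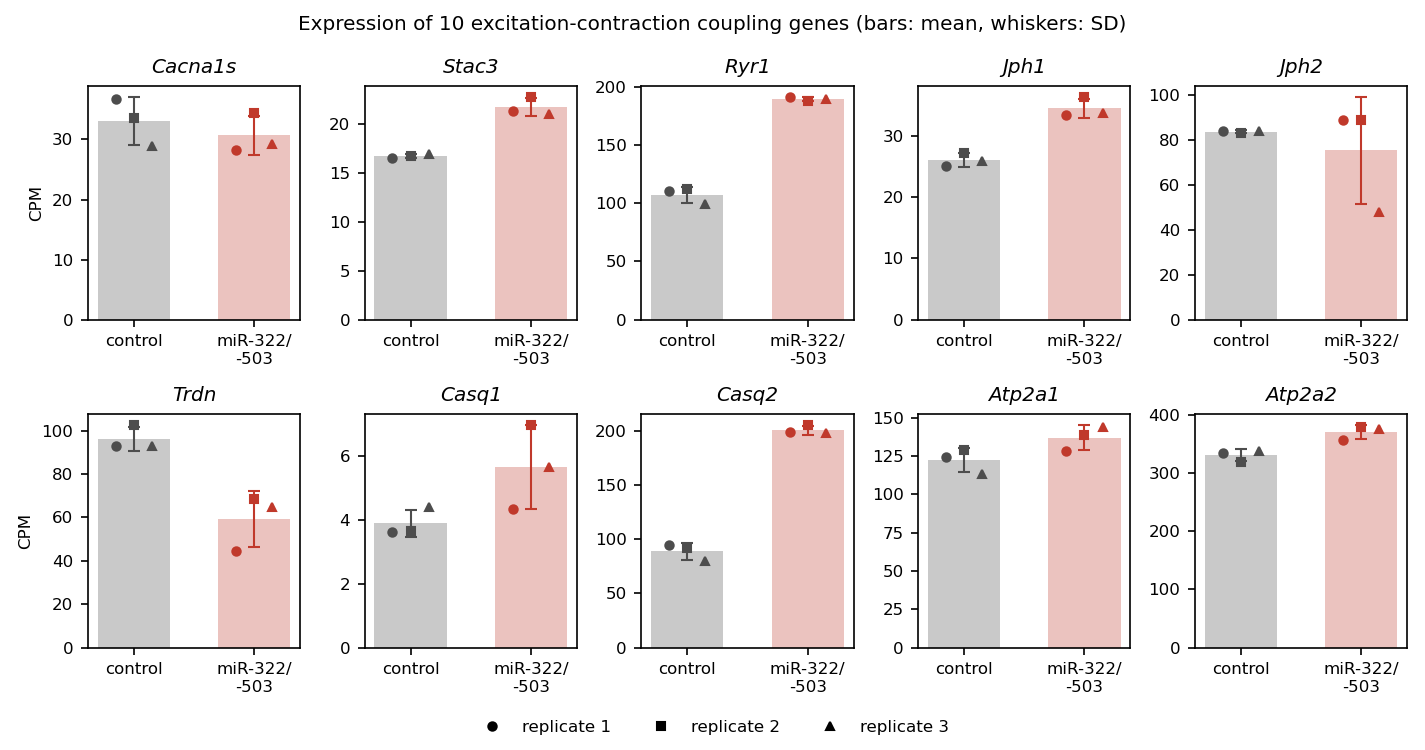
Level of each of the 10 genes in CPM (linear axis from 0) in the 3 control and the 3 miR-322/-503 libraries, with bars for the mean, whiskers for the SD and a marker shape for each replicate number. Ryr1 and Casq2 show a wide gap between the groups, Trdn is lower in all 3 miR-322/-503 libraries, and Jph2 is low in miR-322/-503 replicate 3 and in no other library.

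Of the junctophilins, which span the gap between T-tubule and store, Jph1 was called and Jph2 was not. Jph1 (chr1:16964560-17097889, minus strand) encodes the junctophilin found mainly in skeletal muscle. It was at 25.0, 27.3 and 25.8 CPM in the control libraries against 33.4, 36.3 and 33.7 CPM in the miR-322/-503 libraries. The groups were apart, and Jph1 rose by 0.41 on the log2 scale (SE 0.07, adjusted p 0.00573). On length-scaled values (TPM, scaled for transcript length and library size) limma gave 0.31 with an adjusted p of 0.0642, which is not a call. Jph2 (chr2:163336242-163397993, minus strand) is found in both heart and skeletal muscle. Control libraries had 84.2, 83.1 and 84.1 CPM and miR-322/-503 libraries 89.0, 89.1 and 48.0 CPM. The first 2 miR-322/-503 libraries were above every control library and the third was far below them. The log2 fold change was -0.15 (SE 0.22, adjusted p 0.656), and without miR-322/-503 replicate 3 it turned to 0.0889 (adjusted p 0.339).

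The low Jph2 value was not shared by its library as a whole. It was 0.539 of the mean of the other 2 libraries of its group. Among 4260 genes averaging 50 CPM or more, 17 were this low or lower in that library, against 13 to 22 in each of the other 5 libraries. In the control, Jph2 was among the steadiest genes, with a coefficient of variation of 0.709%. The median over 13596 genes averaging 1 CPM or more was 8.20%. Fkbp1a, which encodes a RyR1-binding immunophilin and was named after its values were seen, was low in the same library, at 117.0 CPM against 185.0 and 198.4 CPM in the other miR-322/-503 libraries.

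Trdn, encoding triadin, which anchors calsequestrin to RyR1, was the 1 gene of the 10 that fell. It lies at chr10:33080554-33476709 on the plus strand. Its level was 92.8, 102.7 and 93.2 CPM in the control libraries against 44.5, 68.3 and 64.8 CPM in the miR-322/-503 libraries. All 3 miR-322/-503 libraries were below all control libraries, and replicate 1 was the lowest. The log2 fold change was -0.70 (SE 0.15, adjusted p 0.012), and leaving out 1 library at a time kept it between -0.82 and -0.53. In TPM, the levels were 99.9, 116.9 and 105.0 in control libraries against 36.4, 87.3 and 66.8 in the miR-322/-503 libraries. The spread within the miR-322/-503 group was wider on this scale, and limma on log2(TPM + 1) gave -0.83 with an adjusted p of 0.0828, which is not a call.

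Trdn also varied more than the other genes in how counts turned into length-scaled values. Unscaled CPM was divided by the authors' FPKM in each library, a quotient that can be compared between libraries but is not a transcript length. For Trdn it was 1.99, 1.86 and 1.87 in control libraries against 2.65, 1.68 and 1.93 in the miR-322/-503 libraries. Replicate 1 of the miR-322/-503 group was the highest and replicate 2 the lowest, a 1.58-fold range. The other 9 genes varied between 1.01-fold and 1.17-fold. Trdn has 8 annotated transcripts, and triadin is known in cardiac and skeletal isoforms. Transcript use was not tested.

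**Figure D3:**
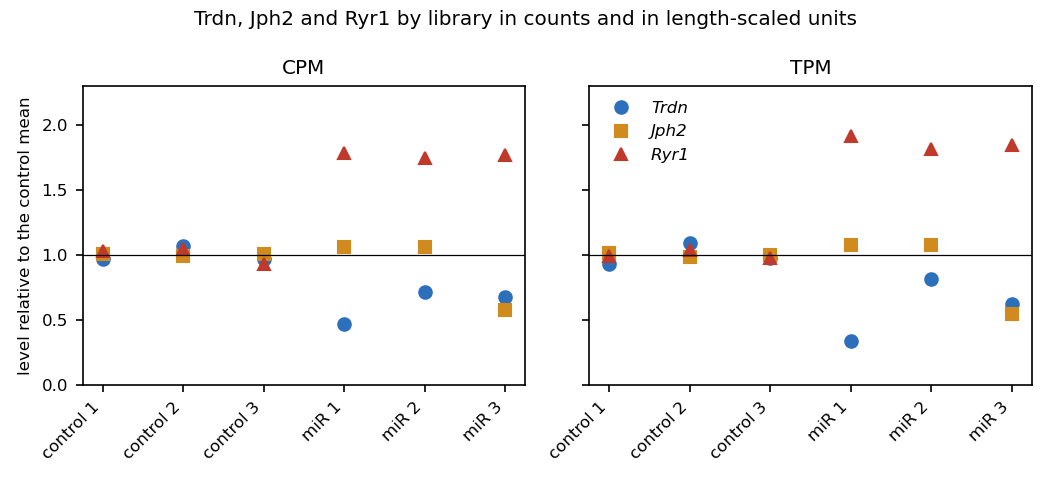
Level of Trdn, Jph2 and Ryr1 in each of the 6 libraries relative to the mean of the control libraries, in CPM on the left and TPM on the right (linear axes from 0). Ryr1 lies above 1.5 in every miR-322/-503 library on both scales, Trdn lies below 1 in all of them with replicate 1 lowest, and Jph2 is low in replicate 3 only.

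The calsequestrins, the main calcium-binding proteins inside the store, held the largest change of the 10. Casq2 (chr3:102086415-102146514, plus strand) is the form of heart, of slow fibres and of developing muscle. It was at 94.9, 91.5 and 79.9 CPM in the control libraries against 198.7, 205.7 and 197.8 CPM in the miR-322/-503 libraries. Every miR-322/-503 library lay above every control library. The log2 fold change was 1.18 (SE 0.08, adjusted p 3.5e-05), a 2.26-fold rise from 88.8 ± 7.86 to 200.7 ± 4.35 CPM (mean ± SD, n = 3). The median of 97 tested genes within 5 Mb was 0.09. Casq1 (chr1:172209894-172219868, minus strand) is the form of fast fibres and was the lowest of the 10 genes. Its values were 3.62, 3.66 and 4.38 CPM in the control libraries against 4.32, 6.96 and 5.65 CPM in the miR-322/-503 libraries. Replicate 1 of the miR-322/-503 group lay within the control range. The log2 fold change of 0.54 (SE 0.20) was not called (adjusted p 0.0803), and without miR-322/-503 replicate 1 it was 0.70 and passed (adjusted p 0.0295).

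Neither pump passed the test. Atp2a1 (chr7:126445858-126463108, minus strand) encodes SERCA1, the pump of fast fibres. Control libraries had 124.2, 129.0 and 113.5 CPM and miR-322/-503 libraries 128.0, 138.9 and 144.2 CPM. Replicate 1 of the miR-322/-503 group lay within the control range, and the log2 fold change of 0.16 (SE 0.07) was not called (adjusted p 0.137). Atp2a1 shares 763 exonic bases with Rabep2 on the opposite strand, which had at most 2525 counts in a library and a log2 fold change of 0.29 (adjusted p 0.0455). Without knowledge of strand, reads from the shared bases cannot be assigned to one of them. Atp2a2 (chr5:122453513-122502225, minus strand) encodes SERCA2, the pump of slow fibres, heart and most other cells, and had the highest level of the 10. It was at 334.7, 318.7 and 338.1 CPM in the control libraries against 356.6, 379.6 and 375.5 CPM in the miR-322/-503 libraries. These groups did not overlap, yet the log2 fold change of 0.16 (SE 0.06) was not called (adjusted p 0.0672). The median of 133 tested genes within 5 Mb was 0.19.

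Levels of different genes were compared in TPM, which is scaled for transcript length. In the control, the order from high to low was Atp2a2 (139.7 ± 6.30 TPM), Trdn (107.3 ± 8.70), Atp2a1 (79.3 ± 4.35), Casq2 (66.5 ± 6.45), Jph2 (37.9 ± 0.581), Stac3 (36.5 ± 0.771), Ryr1 (21.8 ± 0.686), Jph1 (10.7 ± 0.601), Cacna1s (10.6 ± 1.13) and Casq1 (4.13 ± 0.600), with n = 3. Neighbours in this order did not overlap except Jph1 and Cacna1s. In the miR-322/-503 line, Casq2 (148.4 ± 7.88 TPM) stood beside Atp2a2 (149.6 ± 5.54 TPM), and these overlapped. From the third to the seventh place, Atp2a1 (83.8 ± 4.63), Trdn (63.5 ± 25.6), Stac3 (46.3 ± 4.59), Ryr1 (40.5 ± 1.19) and Jph2 (34.0 ± 11.7 TPM) each overlapped with the next. Jph1 (13.5 ± 0.925), Cacna1s (9.97 ± 0.983) and Casq1 (6.02 ± 1.39 TPM) stood apart below them. The 10 genes together made up 514.3 ± 10.2 TPM in control libraries against 595.4 ± 45.2 TPM in the miR-322/-503 line.

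The balance between partners was described by 6 ratios of TPM within each library. With 3 libraries against 3, the exact two-sided permutation test cannot go below 0.1, so no ratio could pass 0.05. The ratio of Ryr1 to Cacna1s was 1.85, 2.10 and 2.27 in control libraries against 4.40, 3.56 and 4.32 in the miR-322/-503 libraries, a log2 difference of 0.98 (SE 0.13). Every miR-322/-503 library lay above every control library in this ratio. Stac3 to Cacna1s went from 3.17 to 3.79 in the control to 4.26 to 5.28, a log2 difference of 0.42 (SE 0.12). Trdn to Ryr1 showed the widest shift, from 4.64, 5.17 and 4.93 to 0.869, 2.21 and 1.66, a log2 difference of -1.74 (SE 0.40). With counts divided by exon length in place of TPM, this difference was -1.55. Leaving out 1 library at a time kept it between -2.03 and -1.36. Casq1 to Casq2 was 0.0528 to 0.0812 in control libraries against 0.0324 to 0.0487 in the miR-322/-503 libraries (log2 difference -0.63, SE 0.26). Casq2 was therefore the main calsequestrin transcript in both lines. Jph1 to Jph2 was 0.269 to 0.295 and 0.328 to 0.617 (log2 difference 0.56, SE 0.29), and the highest value came from replicate 3, in which Jph2 was low. Without that library the log2 difference was 0.27. These 5 ratios did not overlap between the groups, each with a permutation p of 0.1, the smallest possible, and 0.12 after adjustment over the 6 ratios. The SERCA ratio, Atp2a1 to Atp2a2, was 0.521 to 0.633 and 0.542 to 0.570, with a log2 difference of -0.02 (SE 0.09, exact permutation p 0.9).

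**Figure D4:**
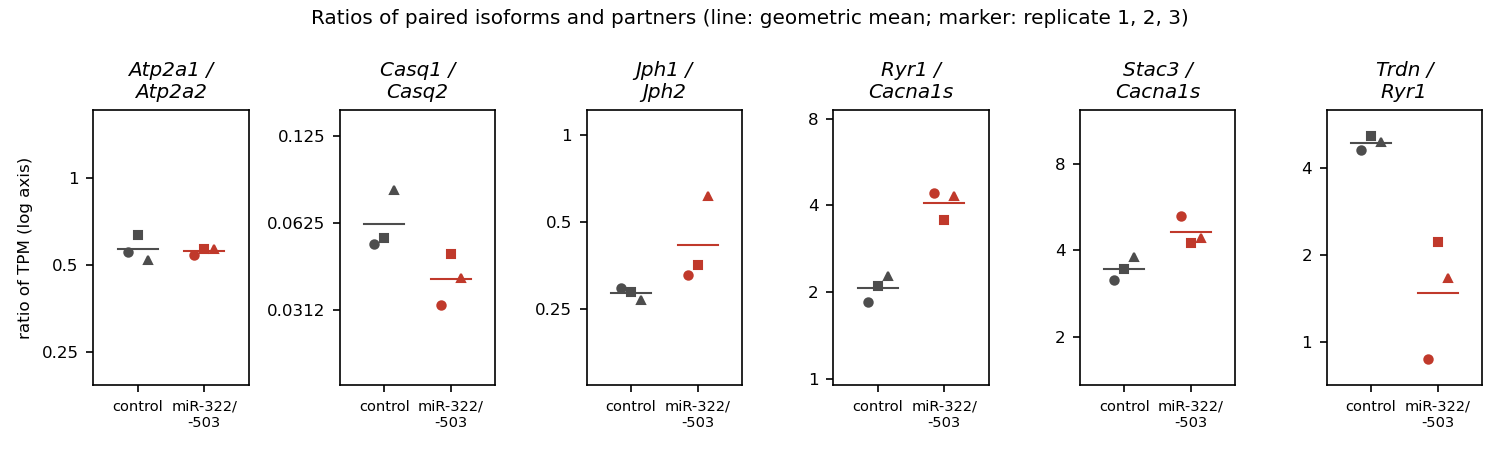
Ratios of TPM between isoforms or partners in each library (log axes, each spanning the same fold range), with a line for the geometric mean of each group and a marker shape for each replicate number. Ryr1 over Cacna1s is higher and Trdn over Ryr1 lower in all 3 miR-322/-503 libraries, whereas the groups overlap for Atp2a1 over Atp2a2.

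Promoter sequences from 250 bases before to 50 bases after the start (RefSeq, GRCm38.p6) were at hand for 6 of the 10 genes, namely Ryr1, Casq2, Cacna1s, Casq1, Atp2a1 and Jph2. They were searched on both strands for the E-box CAGCTG, which reads the same on both strands and is a preferred site of MyoD and myogenin, and for the MEF2 site. Atp2a1, Casq1, Cacna1s and Jph2 each held CAGCTG, which 16.3% of all 32817 promoters of this length held. None of these genes was called. Casq2 and Ryr1, which rose, held no CAGCTG. Casq2 held a MEF2 site beginning 69 bases before its start, a motif found in 3.19% of promoters. Ryr1 held neither motif, nor the general E-box CANNTG, which 72.3% of promoters held. The 2 promoters of the genes with the largest rise are shown beside that of Cacna1s, the voltage sensor that did not pass the test, with MEF2 and CAGCTG sites in capitals. They lie at chr3:102086165-102086464 (plus strand) for Casq2, chr7:29125102-29125401 (minus strand) for Ryr1 and chr1:136052561-136052860 (plus strand) for Cacna1s.
Casq2: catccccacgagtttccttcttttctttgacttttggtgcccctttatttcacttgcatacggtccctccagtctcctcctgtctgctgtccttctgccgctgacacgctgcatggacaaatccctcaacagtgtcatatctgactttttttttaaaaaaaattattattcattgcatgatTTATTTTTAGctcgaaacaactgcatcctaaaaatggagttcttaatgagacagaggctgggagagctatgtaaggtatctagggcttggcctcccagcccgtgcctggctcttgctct
Ryr1: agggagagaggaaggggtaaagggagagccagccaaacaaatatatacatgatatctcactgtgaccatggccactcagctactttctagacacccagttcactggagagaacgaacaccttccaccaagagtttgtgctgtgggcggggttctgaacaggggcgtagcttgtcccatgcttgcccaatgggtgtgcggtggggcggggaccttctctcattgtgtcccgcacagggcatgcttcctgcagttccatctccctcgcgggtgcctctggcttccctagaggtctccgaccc
Cacna1s: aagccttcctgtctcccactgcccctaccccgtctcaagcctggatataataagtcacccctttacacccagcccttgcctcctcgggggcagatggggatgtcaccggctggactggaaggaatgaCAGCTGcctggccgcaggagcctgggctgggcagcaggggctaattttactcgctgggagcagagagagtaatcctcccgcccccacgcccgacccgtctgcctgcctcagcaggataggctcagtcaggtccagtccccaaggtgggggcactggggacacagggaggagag
The CAGCTG of Cacna1s began 123 bases before its start. Binding to these windows was not measured, and no relation between motifs and changes was tested.

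The other genes of calcium handling were taken from 11 lists with 95 entries. Of these, 79 were tested, 25 rose, 17 fell and 37 did not pass the test, which is 53.2% called against 28.8% of all genes. The lists were also chosen with earlier results of these data known, which limits this comparison. The median log2 fold change of the 79 genes was 0.10. Of the 79, 3 were higher and 6 lower by more than 2-fold, near the 4.59% and 5.29% of all genes, with Slc8a2 with almost no counts in the miR-322/-503 line among the latter.

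**Figure D5:**
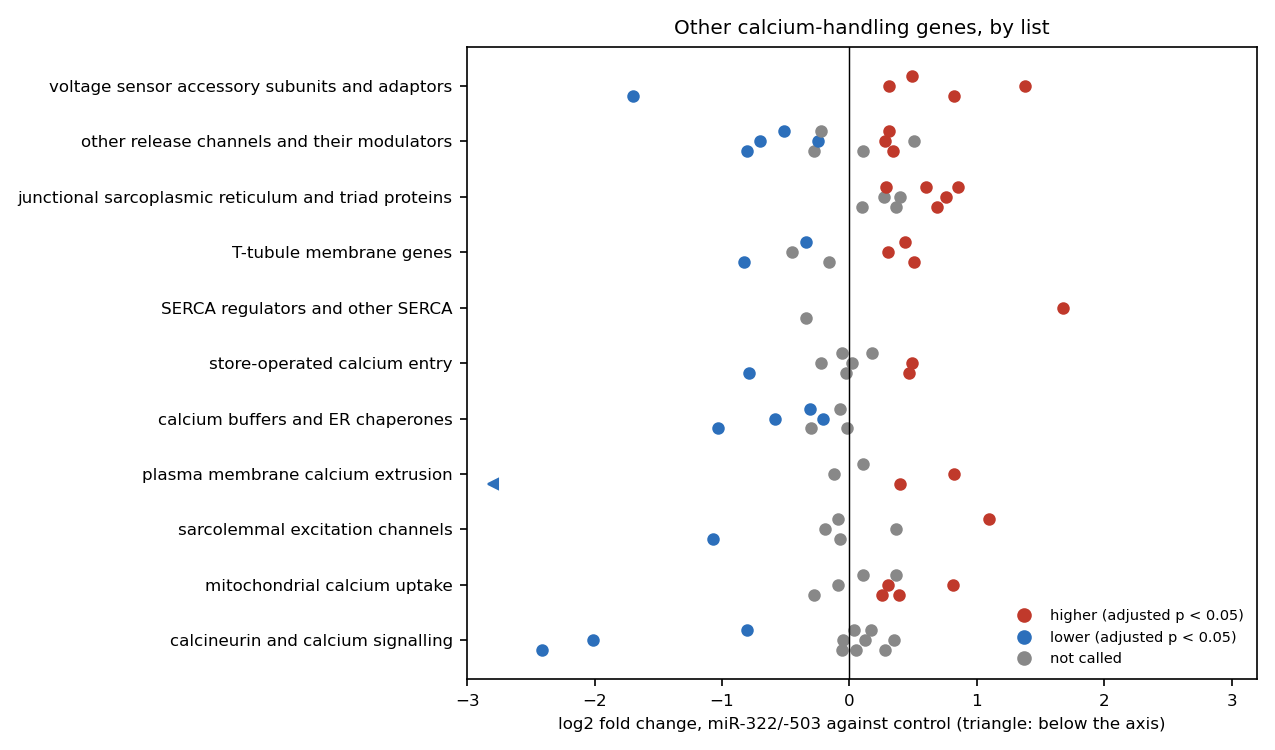
Log2 fold change of the 79 tested calcium-handling genes outside the 10 (miR-322/-503 over control, edgeR), 1 point per gene and 1 line per list, coloured by call. Junctional sarcoplasmic reticulum genes lie to the right of 0 and buffers and chaperones to the left, and the triangle is Slc8a2, which lies beyond the axis and had almost no counts in the miR-322/-503 line.

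All 5 tested accessory genes of the voltage sensor were called, 4 higher and 1 lower. Cacna2d1, the alpha2-delta subunit, was at 75.9, 67.8 and 81.0 CPM in the control libraries against 187.3, 174.3 and 224.2 CPM in the miR-322/-503 libraries, a rise of 1.38 (SE 0.11, adjusted p 9.99e-05). In TPM, Cacna2d1 went from 39.4 ± 5.05 to 67.1 ± 3.96 (mean ± SD, n = 3), and limma on log2(TPM + 1) gave 0.76 (adjusted p 0.0023), still a call but under 2-fold. Cacnb1, the beta subunit of skeletal muscle, rose by 0.82, Cacng1, the gamma subunit, by 0.49 and Stac2, a relative of Stac3, by 0.31 on the log2 scale. These 3 genes were named after their values were seen. Stac, the family member of neurons, fell by 1.70 (SE 0.35, adjusted p 0.0102). Its level was low, at 1.80 to 3.45 CPM in the control libraries against 0.598 to 1.17 CPM in the miR-322/-503 libraries. For Stac, limma on log2(TPM + 1) gave -0.92 (adjusted p 0.0119). The median of 139 tested genes within 5 Mb of it was -0.28.

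Among 12 genes of the junctional sarcoplasmic reticulum and the triad, 9 were tested, 5 rose and none fell. All 9 had log2 fold changes above 0, between 0.10 and 0.85. Klhl41, a kelch protein of the triad and sarcomere, rose by 0.85 (SE 0.06, adjusted p 4.98e-05), from 86.7 to 95.4 CPM to 158.7 to 164.7 CPM. Tmem38a, the TRIC-A channel that balances charge during calcium release, rose by 0.76 (SE 0.06, adjusted p 0.000128), from 82.0 to 93.5 CPM to 149.2 to 151.5 CPM. Jsrp1, Hrc and Speg, named after their values were seen, rose by 0.69, 0.60 and 0.29. Asph, the junctin gene, was not called (log2 fold change 0.40, adjusted p 0.177). The T-tubule list held changes in both directions, with 3 of 7 genes higher and 2 lower. Bin1, which shapes the T-tubule, rose by 0.51 (SE 0.06, adjusted p 0.000632), and Dysf, a membrane repair gene, fell by 0.83 (SE 0.06, adjusted p 7.31e-05).

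Of 11 other release channels and modulators, 3 rose and 4 fell. Itpr1, an IP3 receptor, was at 33.9, 35.1 and 35.9 CPM in the control libraries against 20.6, 20.1 and 19.3 CPM in the miR-322/-503 libraries, a fall of 0.80 (SE 0.07, adjusted p 0.000162). Calm2, one of the calmodulin genes, fell by 0.51 (SE 0.06, adjusted p 0.000658). Ryr2, the cardiac ryanodine receptor, was at 0.129 to 0.303 CPM in the control libraries against 0.168 to 0.346 CPM in the miR-322/-503 libraries. It was not called (adjusted p 0.553), with only 10 and 11 estimated counts in control replicates 1 and 3. Of 7 SERCA regulators and other pumps, 2 could be tested. Mrln, the micropeptide myoregulin that inhibits SERCA, rose by 1.68 (SE 0.35, adjusted p 0.00975), but from 0.296 to 0.724 CPM to only 1.48 to 1.60 CPM. Atp2a3 was not called (log2 fold change -0.34, SE 0.14, adjusted p 0.105). Sln, encoding sarcolipin, had no counts in any library.

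Calcium buffers and chaperones of the reticulum were lower or not called, with none of 7 tested genes higher and 4 lower. Calr, calreticulin, the main calcium buffer of the non-muscle reticulum, fell by 1.03 (SE 0.06, adjusted p 1.97e-05), from 2486, 2645 and 2620 CPM to 1185, 1314 and 1302 CPM. Its neighbourhood was also lower, with a median log2 fold change of -0.80 over 115 tested genes within 5 Mb on chromosome 8. Hspa5, the chaperone BiP, fell by 0.58 (SE 0.06, adjusted p 0.000516), and the median within 5 Mb of it was 0.00 over 147 genes.

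Calcium entry, extrusion and mitochondrial uptake changed gene by gene. Of 8 tested genes of store-operated entry, 2 rose and 1 fell. Orai1, the pore of the entry channel, rose by 0.47 (SE 0.10, adjusted p 0.0129), and Trpc1 fell by 0.79 (SE 0.18, adjusted p 0.0151), a call that was lost without control replicate 1 or miR-322/-503 replicate 3 (adjusted p 0.0501 and 0.0549) and with limma on log2(TPM + 1) (adjusted p 0.061). The median log2 fold change within 5 Mb was 0.20 over 132 tested genes for Orai1 and -0.31 over 64 for Trpc1. Of 5 tested extrusion genes, 2 rose and 1 fell. Atp2b4, a plasma membrane calcium pump, rose by 0.40 (SE 0.06, adjusted p 0.00219). Slc8a2, a sodium-calcium exchanger, was at 0.594, 0.400 and 0.379 CPM in the control libraries against 0.0420, 0 and 0 CPM in the miR-322/-503 libraries, under the floor of 12 estimated counts (3 read pairs) in each of the latter, so no fold is given. Of 8 mitochondrial genes, 4 rose and none fell. Slc8b1, the mitochondrial sodium-calcium exchanger, rose by 0.81 (SE 0.10, adjusted p 0.000878) and Letm1 by 0.26 (SE 0.05, adjusted p 0.00935), which limma on log2(TPM + 1) did not call (0.20, adjusted p 0.113).

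Membrane excitation and calcium signalling were examined last. Of 6 tested channels of the sarcolemma, Scn4a, the sodium channel of skeletal muscle, rose by 1.10 (SE 0.20, adjusted p 0.00573), from 1.60 to 2.04 CPM to 3.11 to 4.71 CPM. The call was lost with limma on log2(TPM + 1) (0.53, adjusted p 0.137). Clcn1, the chloride channel whose missplicing underlies myotonia in DM1, was near the limit of detection at 0.258 to 0.545 CPM in the control libraries against 0.357 to 0.387 CPM in the miR-322/-503 libraries. Of 11 genes of calcineurin and calcium signalling, 3 fell and none rose, and the share called, 27.3%, was near the 28.8% of all genes. Camk2b, a calcium/calmodulin-dependent kinase, fell by 2.01 (SE 0.25, adjusted p 0.000917), from 4.55 to 4.86 CPM to 0.755 to 1.41 CPM. Nfatc2, a target of calcineurin, fell by 2.41 (SE 0.33, adjusted p 0.00151) at a level of 0.917 to 1.29 CPM in the control libraries against 0.160 to 0.273 CPM in the miR-322/-503 libraries. At this low level limma on log2(TPM + 1) gave -0.32 (adjusted p 0.0271).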

How the data were processed

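The authors used Trim-Galore for read trimming, Hisat2 for alignment on GRCm38 and Stringtie for quantification (versions not given in the sources used here). The deposited table holds whole-number estimated counts per gene, not normalized. A second deposited file for every library holds FPKM, TPM and coverage per base, and repeated gene rows were summed. A count corresponds to about 75 covered bases, so a read pair counts about 4 times, and counts overstate counting precision. The floor of 12 estimated counts covers counting error only. The SEs rest on the spread between libraries, for log2 fold changes through the edgeR fit.

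Counts were tested with edgeR 4.0.16 in R 4.3.3 (filterByExpr, TMM factors of 0.977 to 1.03, glmQLFit and glmQLFTest, Benjamini-Hochberg over 18140 genes). CPM values are TMM-scaled. Alternatives were DESeq2 1.42.0, limma 3.58.1 on log2 TPM with a pseudocount of 1 or 0.1, a filter of 10 counts or none, a replicate block and leaving out each library. Ratios were tested by exact permutation with scipy 1.17.1. The fit was tested on simulated data. Members and lists were chosen with earlier results of these data known. Besides the 10 genes, those past 2-fold in each list were named, or, where fewer than 2, up to 2 with the smallest adjusted p. Some genes of the lists are not reported here by name. Coordinates are GRCm38.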

Additional observations from a re-analysis of the deposited data

How the results depend on the processing

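The calls for Ryr1, Casq2 and Stac3 held under every alternative run. Of the 10 genes, 0 were called lower under limma on log2(TPM + 1) and on log2(TPM + 0.1), where Trdn had -0.83 and -0.84 (adjusted p 0.0828 and 0.0827). In the same fits, 1 gene of the pathway lists was higher by more than 2-fold, and 3 were lower under log2(TPM + 1) and 7 under log2(TPM + 0.1), against 6 in edgeR. List calls went from 25 higher and 17 lower to 18 to 19 higher and 13 to 14 lower in these fits. Jph2 ranged from -0.29 to 0.0889 with 1 library left out and reversed to 0.0889 without miR-322/-503 replicate 3. The log2 difference of the Atp2a1 to Atp2a2 ratio between the groups was near 0 throughout. It reversed to 0.0001 with counts per exon length, and ranged from -0.0812 to 0.0591 with 1 library left out, reversing to 0.0591 without control replicate 2 and to 0.0035 without miR-322/-503 replicate 1. The cause of these changes was not tested. With 1 library left out, 4 to 5 of the 10 genes were higher and 1 was lower, and in the lists 22 to 24 were higher and 13 to 16 lower. Same-numbered libraries of the 2 groups had correlated deviations of 0.131, 0.0687 and 0.0451, against -0.108 to 0.0401 between differently numbered libraries. The same-numbered values were the higher ones but small, and the main fit used no pairing. With the replicate block, 4 of the 10 genes were still higher and 1 lower (Trdn -0.72, adjusted p 0.00969), and 29 and 18 genes of the lists were called. Fewer than 12 estimated counts in a library limit what can be said of Slc8a2, Ryr2, Gfap, Nppa, Myl7, Mir322 and Mir503.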
